A study of Mus musculus with 18 samples.

Results

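The 10 genes described here encode the mitochondrial pyruvate carrier, the pyruvate dehydrogenase complex and 3 of the enzymes that switch the complex off or on. They were chosen by name: Mpc1 and Mpc2 (the carrier), Pdha1, Pdhb, Dlat, Dld and Pdhx (the complex), Pdk1 and Pdk3 (inhibitory kinases) and Pdp1 (an activating phosphatase). All 10 were found by symbol among the 18329 genes of the acute table and the 18953 genes of the survival table, and all 10 passed the filter on low values in both.

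RNA was sequenced from the leukemic spleens of C57BL/6 recipients bearing T-cell acute lymphoblastic leukemia (T-ALL), a cancer of immature T cells. In every group, WT included, the injected leukemia carried a conditional Acly allele and the recipients had been sub-lethally irradiated. Acly encodes ATP citrate lyase, which splits citrate in the cytosol to give acetyl-CoA. KO mice received 3 mg of tamoxifen in corn oil to delete the allele, and the mice called WT here received corn oil alone, so KO and WT differ in tamoxifen as well as in Acly. The 4 KO acute and 4 WT acute libraries came from mice treated when overtly leukemic, with collection 48 h later. The other libraries, 3 KO survival first-wave, 3 KO survival second-wave and 4 WT survival, represent mice dosed 48 h after the transplant, with collection at the humane endpoint. The labels do not explain the waves, the exons removed or the driver of the recombinase. Nor do they state that each library is a separate mouse or that 1 primary leukemia was used throughout, so a p-value here reflects only how far these samples spread, which may be technical. The series text states 5 samples per genotype, whereas 10 KO and 8 WT libraries are listed and were used.

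Pyruvate made from glucose in the cytosol crosses the inner mitochondrial membrane through a carrier built from MPC1 and MPC2. In the matrix, the pyruvate dehydrogenase complex turns it into acetyl-CoA, which condenses with oxaloacetate to citrate, the substrate that leaves the mitochondrion for ATP citrate lyase. E1, a tetramer of alpha and beta subunits, takes the carboxyl group off pyruvate, E2 passes the acetyl group on its lipoyl arm to coenzyme A, E3 reoxidises that arm, and the E3-binding protein anchors E3. Pyruvate dehydrogenase kinases phosphorylate the E1 alpha subunit and shut the complex down, and pyruvate dehydrogenase phosphatases reverse this.

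The promoter sequences shown are those of the 4 genes that were lower in KO acute spleens, Mpc1, Pdha1, Dld and Pdk3, and of Pdk1, the kinase gene that was not. Each is the 250 bases before the gene's start in RefSeq on GRCm38.p6, written 5′ to 3′ on the gene's own strand, and for some genes that start differs from the GENCODE gene start. Capitals mark GC boxes (GGGCGG or CCGCCC, bound by the Sp1 family) and CCAAT boxes (CCAAT or ATTGG, bound by NF-Y), which share no letters in these windows. The windows lie at chr17:8283537-8283786 (plus strand, Mpc1), chrX:160138431-160138680 (minus strand, Pdha1), chr12:31351472-31351721 (minus strand, Dld), chrX:93832151-93832400 (minus strand, Pdk3) and chr2:71872974-71873223 (plus strand, Pdk1).
Mpc1: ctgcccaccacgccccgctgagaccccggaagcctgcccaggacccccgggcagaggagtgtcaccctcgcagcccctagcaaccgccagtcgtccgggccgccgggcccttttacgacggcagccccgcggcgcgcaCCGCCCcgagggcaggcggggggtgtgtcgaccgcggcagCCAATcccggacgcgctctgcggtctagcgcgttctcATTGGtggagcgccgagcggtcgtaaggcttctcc
Pdha1: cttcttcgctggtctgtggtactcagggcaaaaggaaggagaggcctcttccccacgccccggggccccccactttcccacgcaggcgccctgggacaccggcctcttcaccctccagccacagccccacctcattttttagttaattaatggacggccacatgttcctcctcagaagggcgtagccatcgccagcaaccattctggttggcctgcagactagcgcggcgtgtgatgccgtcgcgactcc
Dld: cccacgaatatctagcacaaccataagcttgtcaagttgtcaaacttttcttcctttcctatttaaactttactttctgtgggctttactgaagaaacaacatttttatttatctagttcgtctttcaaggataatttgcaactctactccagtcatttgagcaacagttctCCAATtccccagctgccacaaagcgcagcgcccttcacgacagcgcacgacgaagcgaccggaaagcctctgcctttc
Pdk3: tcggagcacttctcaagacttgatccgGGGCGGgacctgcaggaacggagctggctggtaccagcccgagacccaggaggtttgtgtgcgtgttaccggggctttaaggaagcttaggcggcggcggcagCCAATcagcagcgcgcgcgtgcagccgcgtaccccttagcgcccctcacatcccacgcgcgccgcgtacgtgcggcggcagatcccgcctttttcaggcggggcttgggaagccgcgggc
Pdk1: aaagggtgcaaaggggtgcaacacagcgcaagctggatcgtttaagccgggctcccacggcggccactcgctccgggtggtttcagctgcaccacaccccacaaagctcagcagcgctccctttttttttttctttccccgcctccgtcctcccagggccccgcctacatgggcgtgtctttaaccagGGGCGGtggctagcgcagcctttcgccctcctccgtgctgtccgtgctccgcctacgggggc

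The 5 windows differed in makeup. Mpc1 held 1 GC box and 2 CCAAT boxes in a window of 73.6% GC, whereas Dld held no GC box and 1 CCAAT box in a window of 43.6% GC, and Pdha1, at 61.6% GC, held neither. Pdk3, at 67.6% GC, had 1 of each, and Pdk1, at 64% GC, had 1 GC box. The median GC content of all 32851 promoters in the same set was 52.4%.

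RefSeq windows were matched for 9 of the 10 genes, Pdp1 being the one without. On either strand, a GC box lay in 7 of the 9, against 32.7% of all promoters, and a CCAAT box in 5 of the 9, against 33.8%. The core of the hypoxia-inducible factor site, ACGTG or CACGT, was present in Pdhb and Pdk3, 2 of the 9, against 16.6% of all promoters. The E-box CACGTG, which contains both of those cores, was in 0 of the 9 against 6.02%, and the oestrogen-related receptor element AAGGTCA or TGACCTT in 0 of the 9 against 4.08%. A match is a run of letters and not a shown binding site, and the absence of one concerns these windows only.

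The libraries were 6.1 to 12.7 M reads deep, as estimated from the smallest steps between low values. Acly itself was at 733 ± 85.1 normalized counts in KO acute and 1256 ± 122 in WT acute libraries (SD, n = 4 each), and at 727 ± 71.8 in the first wave and 576 ± 75.3 in the second (SD, n = 3 each) against 1697 ± 154 in WT survival libraries (SD, n = 4). All 21 markers of thymocytes and T-ALL were detected in every library. Their summed level was 59697 to 84565 normalized counts in KO acute and 88742 to 105601 in WT acute libraries, without overlap, and 121821 to 148173 in the first wave, 99366 to 111841 in the second and 77915 to 126553 in WT survival libraries. KO acute replicates 1 and 2 stood apart by a share of mitochondrially encoded counts of 4.8% and 5.27%, against 2.35% and 2.7% in KO acute replicates 3 and 4 and 3.5% to 3.69% in WT acute libraries. On the first principal component of the acute table, KO replicate 2 lay at 67.1, the other KO libraries at 22.7 to 36 and WT libraries at -40.4 to -29. KO acute replicate 2 also had the lowest summed thymocyte and T-ALL markers of the acute libraries, 59697, and the highest summed neutrophil and B cell markers. On the first principal component of the survival table, KO second-wave replicate 1 lay at 73.2 and WT replicates 1 and 2 at -78.6 and -67.2, with the other 7 libraries between -4.16 and 18.8. That KO library also had the highest summed erythroid markers of the survival table, 45572 normalized counts. WT survival replicates 1 and 2 had the lowest summed thymocyte and T-ALL markers of that table, 77915 and 84260. Their summed neutrophil markers were 1831 and 1069, against 259 to 463 in the other survival libraries.

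The acute comparison asks what differed 48 h after Acly deletion in established leukemia. Of the 10 genes, 4 fell in KO acute spleens, namely Mpc1, Pdha1, Dld and Pdk3, and 0 rose (limma, adjusted p under 0.05). Mpc1 had the lowest log2 fold change of the 10 at -1.06. Among all 14184 genes tested, 12.6% passed this threshold, 8.07% lower and 4.58% higher. The KO libraries were below all WT libraries for 6 of the 10 genes, which was so for 11% of all genes. Of the 10, 9 had negative values, and the median log2 fold change was -0.50 for the 10 against 0.03 for all genes tested. In bulk tissue, fewer leukemia cells and less RNA of these genes per cell cannot be told apart.

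**Figure D1:**
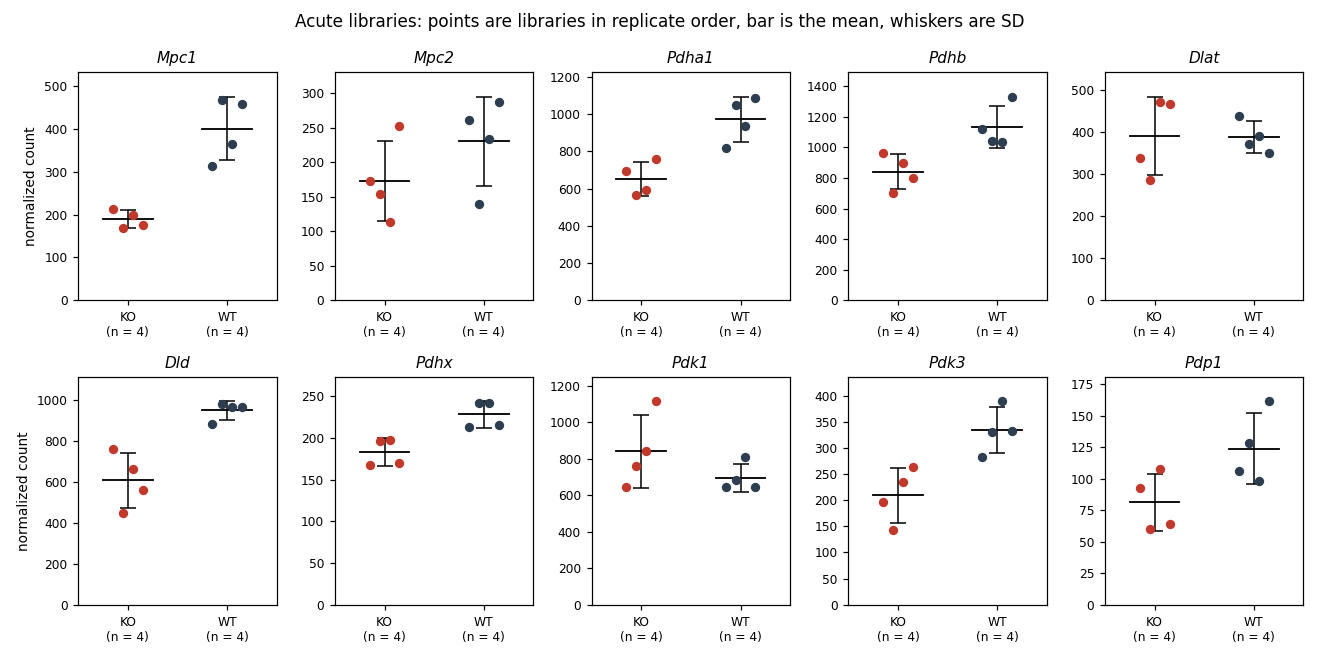
Normalized counts (y axis, from 0) of the 10 genes in the KO acute and WT acute libraries (4 points each, in replicate order), with the mean as a bar and the SD as whiskers. KO points lie below all WT points for Mpc1, Pdha1, Pdhb, Dld, Pdhx and Pdk3, and overlap WT points for Mpc2, Dlat, Pdk1 and Pdp1.

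Of the 2 carrier genes, Mpc1 fell and Mpc2 did not pass the threshold, and the difference between the 2 genes was not tested. Mpc1 (chr17:8282904-8297661 of GRCm38, plus strand), whose product pairs with MPC2 to form the carrier, had 214, 169, 200.2 and 176 normalized counts in KO acute replicates 1 to 4, against 314, 466, 364 and 459 in WT acute replicates 1 to 4. The highest KO library was thus well below the lowest WT library, and the means were 189.6 ± 21.1 in KO and 401 ± 74.4 in WT (SD, n = 4 each). Mpc1 changed by -1.06 on the log2 scale (SE 0.18, limma adjusted p = 0.00308), which ranked it 215 of 14184 genes by p. An exact two-sided permutation test gave p = 0.0286, the smallest that 4 against 4 allows. All 6 genes whose groups did not overlap had this same value, among them Pdhb and Pdhx, which did not pass the limma threshold. Mpc2 (chr1:165460637-165481214, plus strand) had 173, 154, 113 and 252 normalized counts in KO acute libraries and 261, 139, 234 and 287 in WT acute libraries. The groups overlapped, WT replicate 2 being below 3 of the 4 KO libraries, and the value of -0.42 (95% interval -1.01 to 0.17) did not pass (limma adjusted p = 0.347).

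Within a library the balance of the 2 carrier transcripts varied widely. Mpc1 was 0.698 to 1.77 times Mpc2 in the KO acute and 1.2 to 3.35 times Mpc2 in the WT acute libraries, as normalized counts not divided by length. The ranges overlapped.

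Of the 5 subunits of the complex, Pdha1 and Dld fell and the other 3 did not pass the threshold. Their median log2 fold change was -0.43, and all 5 values were negative. Together they took 0.0311% to 0.0403% of all normalized counts in the KO acute and 0.0455% to 0.0493% in the WT acute libraries, without overlap. The sum restates the single values below, of which Pdhb, Pdha1 and Dld are the largest, and was not set against sums of other genes.

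Pdha1 (chrX:160122209-160138413, minus strand), the E1 alpha subunit that carries the regulatory phosphorylation sites, had 695, 565, 592 and 762 normalized counts in KO acute and 820.5, 1050.3, 935 and 1089 in WT acute libraries. The groups were apart, with means of 653 ± 91.2 in KO and 974 ± 121 in WT (SD, n = 4 each) and a log2 fold change of -0.58 (SE 0.14, limma adjusted p = 0.0188). Pdhb (chr14:8165996-8173025, minus strand), the E1 beta subunit, had 964, 705, 900.1 and 801 in KO acute and 1122, 1044, 1037 and 1333 in WT acute libraries. These also did not overlap, but the value of -0.43 (95% interval -0.72 to -0.14) missed the threshold (limma adjusted p = 0.0549).

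For E2 the groups crossed. Dlat (chr9:50634633-50659780, minus strand), which forms the core of the complex, had 338, 287, 473 and 467 normalized counts in KO acute and 439, 372, 391 and 352 in WT acute libraries. KO replicates 3 and 4 lay above every WT library and KO replicates 1 and 2 below every one. The means were 391 ± 93.5 in KO and 388 ± 37.3 in WT (SD, n = 4 each), and the log2 fold change of -0.02 had a 95% interval of -0.41 to 0.38 (limma adjusted p = 0.966). Its sign turned in 9 of 21 alternative settings.

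E3 fell. Dld (chr12:31331277-31351453, minus strand) encodes the dihydrolipoamide dehydrogenase that the pyruvate, oxoglutarate and branched-chain complexes and the glycine cleavage system share. It had 762, 450.0, 660.3 and 560.5 normalized counts in KO acute against 882, 981, 965 and 966 in WT acute libraries. KO libraries were more spread than WT libraries but all lay below them, with means of 608 ± 134 in KO and 948 ± 44.9 in WT (SD, n = 4 each). The change was -0.67 on the log2 scale (SE 0.16, limma adjusted p = 0.0148). Pdhx (chr2:103021075-103073513, minus strand), the E3-binding protein, had 168, 197, 198 and 169.6 in KO acute and 213, 242, 242 and 215 in WT acute libraries. The groups did not overlap, and its log2 fold change of -0.32 (95% interval -0.69 to 0.05) did not pass (limma adjusted p = 0.252).

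Of the 2 kinase genes, Pdk3 fell and Pdk1 did not pass the threshold. Pdk3 (chrX:93764607-93832201, minus strand) encodes a kinase isoenzyme of the complex. It had 196, 143, 234 and 264 normalized counts in KO acute against 283, 331, 389 and 333 in WT acute libraries, without overlap. The means were 209 ± 52.3 in KO and 334 ± 43.4 in WT (SD, n = 4 each), with a log2 fold change of -0.70 (SE 0.21, limma adjusted p = 0.0408). Pdk1 (chr2:71873224-71903858, plus strand), the isoenzyme known as a target of hypoxia-inducible factor 1, had 647, 759, 846 and 1116 normalized counts in KO acute and 648, 686, 809 and 646 in WT acute libraries. The groups overlapped, with KO replicate 4 above every WT library and KO replicate 1 below 3 of the 4, and the log2 fold change of 0.25 (95% interval -0.11 to 0.60) did not pass (limma adjusted p = 0.349).

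The proportion of the 2 kinase transcripts did not overlap between the groups. Pdk1 was 3.31 to 5.3 times Pdk3 in the 4 KO acute libraries and 1.94 to 2.29 times Pdk3 in the 4 WT acute libraries, as normalized counts not divided by length. The log2 level of Pdk1 over the mean of the 5 subunits was 0.39 to 1.2 in KO acute and 0.01 to 0.39 in WT acute libraries. These ratios are given as a description and were computed after the single values were known.

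Pdp1 (chr4:11958184-11966452, minus strand), the catalytic subunit of a phosphatase that reactivates E1, varied widely between libraries. It had 92.3, 60.4, 108 and 64.1 normalized counts in KO acute and 106, 128, 98.5 and 161 in WT acute libraries. KO replicate 3 lay above WT replicates 1 and 3. The means were 81.1 ± 22.7 in KO and 124 ± 28.2 in WT (SD, n = 4 each), and the log2 fold change of -0.62 (95% interval -1.20 to -0.03) did not pass over all genes (limma adjusted p = 0.159).

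The calls differed in how firmly they held. Mpc1 passed in 20 of 21 alternative settings and missed in 1, where 2 choices were changed together (log2 -0.77, limma adjusted p = 0.0501). Dld passed in 17, Pdha1 in 14 and Pdk3 in 8 of the 21. After removal of the dependence on transcript length, GC content and expression level, 1 of the 10 passed, Mpc1 at -0.77 (limma adjusted p = 0.0199). Pdha1 was then at -0.39 (limma adjusted p = 0.0816), Dld at -0.44 (0.074) and Pdk3 at -0.59 (0.0762). With limma's eBayes run without its trend on abundance, Mpc1 alone passed (adjusted p = 0.0313).

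Leaving libraries out also mattered. Without WT acute replicate 2 or WT acute replicate 4, 2 of the 10 passed, because Pdha1 (limma adjusted p = 0.0597 and 0.0693) and Pdk3 (0.0864 and 0.0962) did not. The Pdk3 call was also lost without KO acute replicate 1 (limma adjusted p = 0.0827), KO acute replicate 2 (0.0899) or WT acute replicate 3 (0.112). Without KO acute replicate 1, Pdhb passed (limma adjusted p = 0.0474). Of the KO acute libraries, replicate 2 held the lowest value for 7 of the 10 genes. Without KO acute replicates 1 and 2, the libraries of high mitochondrial share, 2 passed, Mpc1 at -1.07 (limma adjusted p = 0.0131) and Dld at -0.64 (0.0216), while Pdha1 was at -0.53 (0.0793) and Pdk3 at -0.42 (0.246).

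Levels of some markers also differed between the acute groups. The summed level of the thymocyte and T-ALL markers did not overlap between the acute groups, as given above, and 5 of the 21 markers fell and 1 rose (median log2 fold change -0.17). The 5 included Tcf7 at -0.91, Rag2 at -0.76 and Rag1 at -0.61, genes of T-lineage identity and of receptor gene rearrangement, and the 1 that rose was the co-receptor gene Cd4 at 1.11. When each library was scaled to the mean log2 level of those markers, an alternative chosen after this was seen, the median of all genes moved to 0.21 and 1 of the 10 passed. Mpc1 was then at -0.88 (limma adjusted p = 0.0118), Dld at -0.48 (0.0572), Pdha1 at -0.39 (0.113) and Pdk3 at -0.52 (0.0976). Summed neutrophil markers were at 1563 to 4817 normalized counts in KO acute and 877 to 1772 in WT acute libraries, with up to 1 of 15 markers at 0 in a KO and up to 2 in a WT library. Summed B cell markers were at 617 to 1667 in KO acute and 474 to 1009 in WT acute libraries, with 0 of 12 at 0 in KO and up to 1 in a WT library. Erythroid markers were at 5260 to 14627 in KO acute and 9974 to 17550 in WT acute libraries, with none of the 12 measured at 0. Macrophage markers were at 487 to 726 in KO acute and 505 to 680 in WT acute libraries, with up to 2 of the 10 measured at 0 in a KO and up to 1 in a WT library. Of the 13 neutrophil markers tested, 2 rose and 0 fell, all 13 values were positive and the median log2 fold change was 0.79. Of the 12 erythroid markers tested, 2 fell and 0 rose, all 12 were negative and the median was -0.77. Of the 11 B cell markers tested 0 were called, all 11 were positive and the median was 0.71. Of the 8 macrophage markers tested 0 were called, with 5 positive, 3 negative and a median of 0.09. The markers at 0 in at least 1 acute library were Cd79a, Ctsg, Cebpe, C1qa and C1qc. The part of these cells in the results was not tested.

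**Figure D2:**
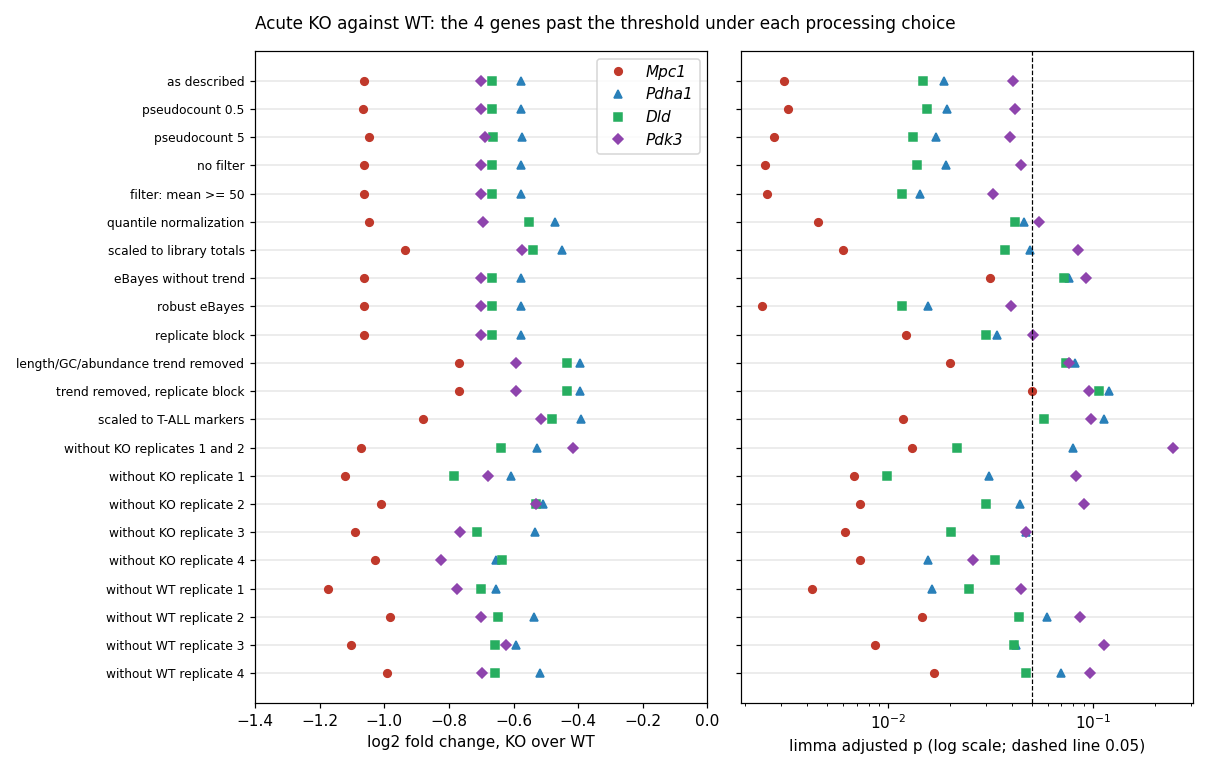
Log2 fold change of KO over WT (left) and limma adjusted p on a log axis (right) for Mpc1, Pdha1, Dld and Pdk3 in the acute libraries, with the result as described in the top line and the 21 alternative settings beneath it. All values are below 0; Mpc1 stays left of the dashed line at 0.05 in 20 of the 21 and Pdk3 in 8.

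Other genes around pyruvate were counted to place the 10. The lists were chosen with earlier results of these data known, so the counts describe and are no independent support. Among all genes tested 8.07% fell and 4.58% rose, and the counts in the lists were not tested against those shares. Of the 3 other regulators of the complex that were tested, 0 rose and 0 fell: the kinase gene Pdk4 was at 0.53 (SE 0.39), the phosphatase gene Pdp2 at -0.27 (SE 0.16) and Pdpr, a phosphatase regulatory subunit, at -0.10 (SE 0.17). Of 12 genes that supply lipoate and the thiamine cofactor, 2 fell and 0 rose (median -0.18). These were Isca1 at -0.68 (SE 0.11, limma adjusted p = 0.00266) and Isca2 at -0.68 (limma adjusted p = 0.0271), which help to build the iron-sulfur clusters that lipoate synthase needs. Isca1 was at 827 ± 61.5 normalized counts in KO acute and 1329 ± 76.9 in WT acute libraries (SD, n = 4 each).

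The sister complexes, which use the same E3, went both ways. Of 10 genes of the oxoglutarate and branched-chain complexes and of glycine cleavage, 1 fell and 2 rose (median -0.17). Ogdh, the E1 of oxoglutarate dehydrogenase, was at 662 ± 106 normalized counts in KO acute and 1400.0 ± 263 in WT acute libraries (SD, n = 4 each; log2 -1.08, SE 0.16, limma adjusted p = 0.00131). Dlst, the E2 of the same complex, was at 2120 ± 315 in KO acute and 1349 ± 164 in WT acute libraries (SD, n = 4 each; log2 0.65, SE 0.13, limma adjusted p = 0.0075). Bckdk, the kinase that shuts the branched-chain complex down, rose by 0.93 (SE 0.27, limma adjusted p = 0.0381). Subunits of one complex thus had opposite calls in oxoglutarate dehydrogenase.

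Of 10 other makers and users of pyruvate 2 fell and 0 rose (median -0.11). Ldha, which interconverts pyruvate and lactate, was at 1349 ± 173 in KO acute and 2287 ± 64.3 in WT acute libraries (SD, n = 4 each; log2 -0.77, limma adjusted p = 0.00163). Slc16a1, the plasma membrane carrier MCT1 for lactate and pyruvate, was at -0.58 (limma adjusted p = 0.00479). Of 7 genes of citrate synthesis and export 1 fell, the targeted gene Acly, and 0 rose (median -0.03). Among 17 targets of hypoxia-inducible factor 1, a list without Pdk1, 2 fell and 0 rose, where 8.07% of all genes fell and 4.58% rose. The 2 were P4ha1, a collagen prolyl hydroxylase, at -0.97 (limma adjusted p = 0.0148) and Bnip3l, a mitophagy receptor, at -0.57 (limma adjusted p = 0.00845). The median of that list was -0.48, beside -0.50 for the 10 genes and -0.77 for the erythroid markers, while Pdk1 was at 0.25.

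**Figure D3:**
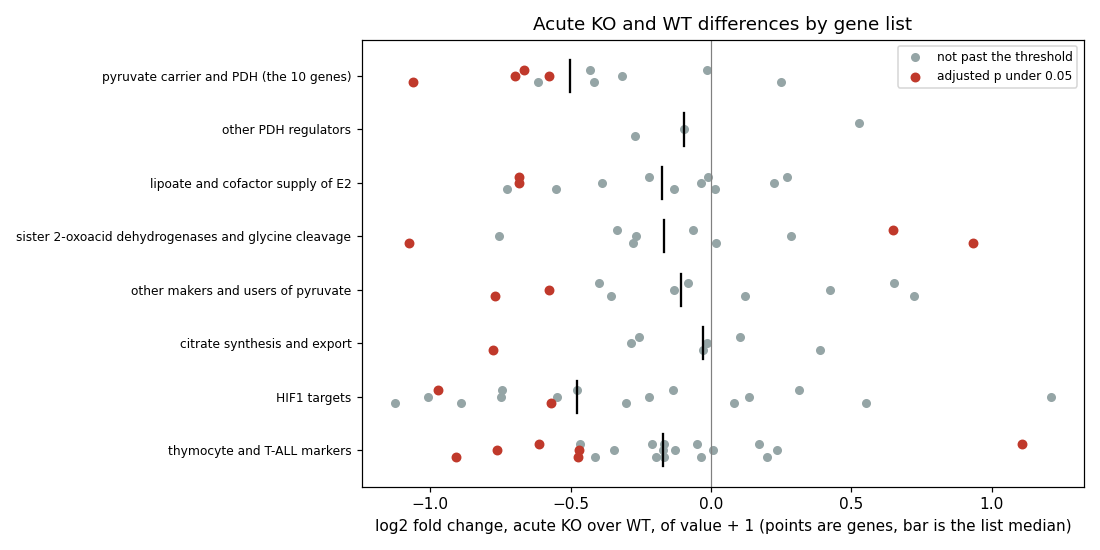
Log2 fold change of acute KO over WT (x axis) for each tested gene of the 10 and of 7 lists (one line each), with genes past the limma threshold in red and the list median as a black bar. Of the lines drawn, the 10 genes and the targets of hypoxia-inducible factor 1 have the lowest medians, at -0.50 and -0.48. B cell, neutrophil, erythroid and macrophage markers are not drawn, and the erythroid median was lower, at -0.77.

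The survival comparisons ask whether leukemias that reached the endpoint after Acly deletion differed from controls in the same genes. None of the 10 was called in either wave, between the waves or over both waves, and 0 had an unadjusted limma p under 0.05. Few of all 14286 genes were called either. The targeted gene Acly was itself not called in the first wave, at 727 ± 71.8 normalized counts (SD, n = 3). In WT survival libraries it was at 1697 ± 154 (SD, n = 4), without overlap. A count of 0 therefore does not show that the 10 genes were unchanged. In the first wave against WT 0% passed the threshold, 8.02% had an unadjusted p under 0.05 and 8% had groups that did not overlap. In the second wave against WT these shares were 0.224%, 13% and 9.66%, in the second against the first wave 0.119%, 6.34% and 13.6%, and in both waves against WT 0.021%, 12.9% and 2.12%. Of the 10, 0 had groups without overlap in any of the 4 comparisons. The log2 fold changes ran from -0.50 to 0.27 in the first wave against WT (limma adjusted p = 0.623 to 0.98) and from -0.41 to 0.42 in the second wave against WT (limma adjusted p = 0.469 to 0.895). Between the waves they ran from -0.45 to 0.35 (limma adjusted p = 0.923 to 0.999) and over both waves against WT from -0.32 to 0.31 (limma adjusted p = 0.436 to 0.909). The count of 0 held in all alternative settings, including without WT survival replicates 1 and 2 and without KO second-wave replicate 1. The share over both waves depended on 1 library, since 155 genes were called without WT survival replicate 3, against 3 with it. Against WT, the median of 11 neutrophil markers was -1.04 in the first and -0.69 in the second wave. The medians were -0.46 and -1.12 for 10 B cell, -0.19 and 0.14 for 12 erythroid and 0.27 and 0.21 for 9 macrophage markers. They were 0.27 and 0.04 for 21 thymocyte and T-ALL markers. The part of these cells was not tested.

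**Figure D4:**
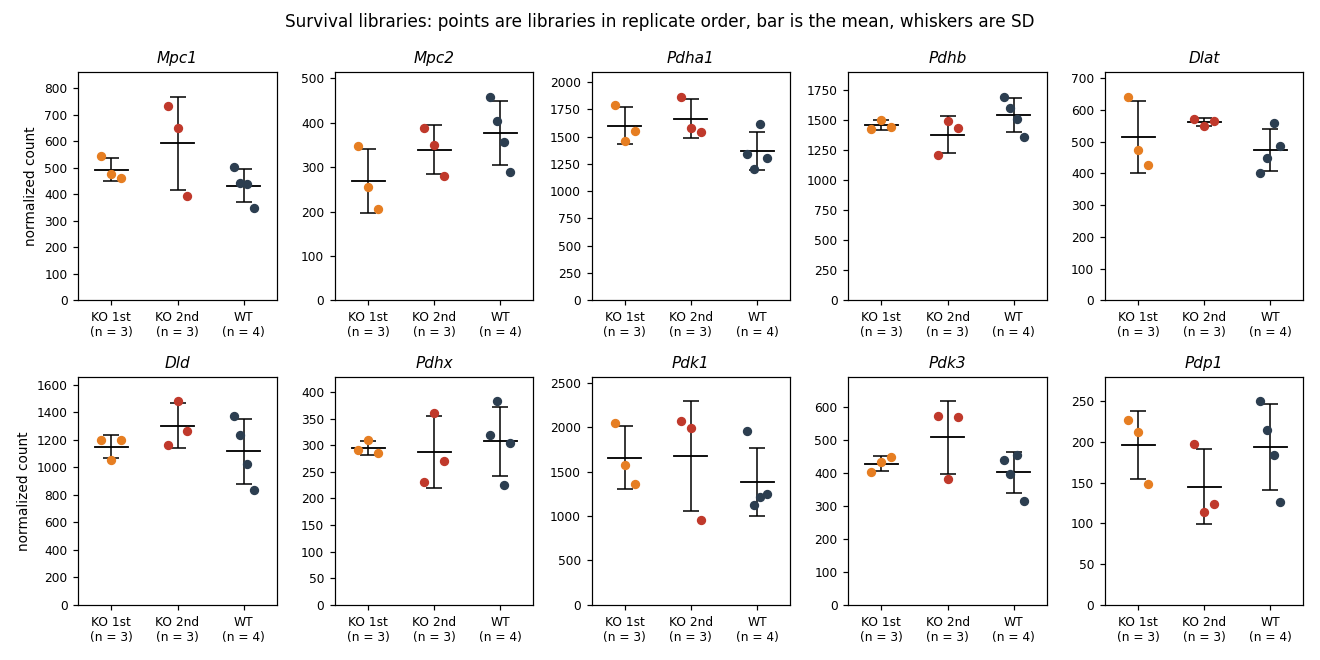
Normalized counts (y axis, from 0) of the 10 genes in KO first-wave (n = 3), KO second-wave (n = 3) and WT survival (n = 4) libraries, with the mean as a bar and the SD as whiskers. In each panel the points of a wave overlap those of WT.

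None of the genes that fell in the acute libraries had a lower mean in either wave than in WT survival libraries. Mpc1 had 542, 475 and 459.8 normalized counts in the first wave and 731, 651 and 394 in the second, against 503, 441, 437 and 349 in WT survival libraries. Second-wave replicates 1 and 2 lay above every WT library, replicate 1, which stood apart on the first component, being the highest, and replicate 3 lay within the WT range. The log2 fold changes were 0.20 (95% interval -0.30 to 0.69) in the first and 0.42 (95% interval -0.08 to 0.91) in the second wave. The log2 ratio of Mpc1 to Mpc2 was 0.64 to 1.16 in the first wave, 0.49 to 0.91 in the second and 0.13 to 0.29 in WT survival libraries. All 6 KO libraries thus lay above all 4 WT libraries in a ratio looked at after the single values were known, and it is given with no test. Mpc2 itself was at 269 ± 71.9 in the first wave and 339 ± 55 in the second (SD, n = 3 each), against 377 ± 71.5 in WT survival libraries (SD, n = 4), with log2 fold changes of -0.50 in the first wave (95% interval -1.03 to 0.03) and -0.15 in the second (95% interval -0.67 to 0.38).

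Pdha1 had 1789.8, 1459 and 1551 normalized counts in the first wave and 1867, 1582 and 1540.3 in the second, against 1344, 1207, 1614 and 1301 in WT survival libraries. WT replicate 3 lay inside the KO range and the other 3 WT libraries below it. The log2 fold changes were 0.23 (95% interval -0.12 to 0.58) in the first wave, 0.29 (95% interval -0.06 to 0.63) in the second and 0.26 over both (limma adjusted p = 0.436). An exact two-sided permutation test over both waves gave Pdha1 p = 0.0476, unadjusted and the lowest of the 10 genes in that comparison.

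Dld had 1196, 1052 and 1199.6 normalized counts in the first wave and 1163, 1481 and 1265 in the second, against 1376, 1233, 1021 and 835 in WT survival libraries. Its WT libraries were more spread than those of either wave, and the log2 fold changes were 0.07 in the first wave (95% interval -0.34 to 0.47) and 0.24 in the second (95% interval -0.17 to 0.65). Pdhb was at 1461 ± 41.2 in the first wave and 1381 ± 154 in the second (SD, n = 3 each), against 1546 ± 142 in WT survival libraries (SD, n = 4). Dlat was at 514 ± 113 in the first wave and 562 ± 11.5 in the second (SD, n = 3 each), against 474 ± 66.3 in WT survival libraries (SD, n = 4). Pdhx, at 296 ± 13.2 in the first wave and 287 ± 67.1 in the second (SD, n = 3 each), was at 308 ± 65.2 in WT survival libraries (SD, n = 4). None of these 3 subunits passed the threshold in either wave. The subunits together took 0.0487% to 0.0534% of normalized counts in the first wave, 0.0498% to 0.0551% in the second and 0.0467% to 0.0496% in WT survival libraries.

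Pdk1 and Pdp1 were spread widely at the endpoint, whereas Pdk3 values lay close together in the first wave. Pdk1 had 2045, 1569 and 1359.9 normalized counts in the first wave and 2068, 1993 and 959.9 in the second, against 1956, 1125, 1219 and 1251 in WT survival libraries. In each group 1 or 2 libraries lay between 1956 and 2068 and the others at 1569 or less, so the log2 fold changes of 0.27 in the first wave (95% interval -0.31 to 0.85) and 0.23 in the second (95% interval -0.36 to 0.81) are loosely bounded. Pdk3 had 402, 433 and 449 in the first wave and 572, 381 and 571 in the second, against 439.6, 398, 455 and 315 in WT survival libraries. Its log2 fold changes were 0.10 in the first wave (95% interval -0.36 to 0.56) and 0.33 in the second (95% interval -0.14 to 0.79). Pdk1 was 3.03 to 5.08 times Pdk3 in the first wave, 1.68 to 5.24 times in the second and 2.68 to 4.45 times in WT survival libraries, which overlapped. Pdp1 was at 196 ± 41.6 in the first wave and 145 ± 45.9 in the second (SD, n = 3 each), against 194 ± 52.5 in WT survival libraries (SD, n = 4).

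**Figure D5:**
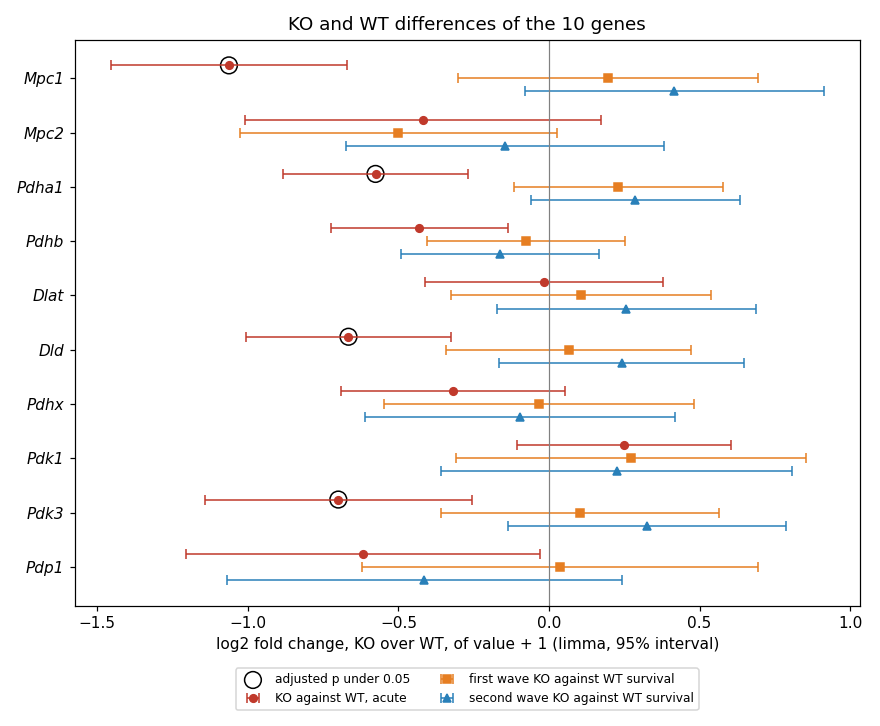
Log2 fold change of KO over WT with 95% interval (x axis) of the 10 genes in the acute libraries (circles), the first wave (squares) and the second wave (triangles), both waves being set against the same 4 WT survival libraries. Rings mark the 4 acute values past the limma threshold, for Mpc1, Pdha1, Dld and Pdk3, and all other values are not past it.

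The acute and endpoint effects were compared in 1 model over the 18 libraries, as the acute KO and WT difference minus the mean of both waves and WT, so that the separate scaling of the tables cancels. Of the 10 genes, the same 4 differed, all lower in the acute comparison, and among the 13742 genes tested 11.4% passed, 7.51% lower and 3.92% higher. The difference was -1.37 for Mpc1 (SE 0.27, limma adjusted p = 0.00354), -0.83 for Pdha1 (SE 0.19, limma adjusted p = 0.00935), -0.91 for Pdk3 (SE 0.27, limma adjusted p = 0.0348) and -0.82 for Dld (SE 0.23, limma adjusted p = 0.0252). For the other 6 it ran from -0.43 for Pdp1 (95% interval -1.21 to 0.36) to 0.00 for Pdk1 (95% interval -0.65 to 0.65). Pdhb was at -0.31 (limma adjusted p = 0.281), Pdhx at -0.25, Dlat at -0.20 and Mpc2 at -0.09. Acute and endpoint mice also differed in when they were treated, in the time to collection and in the table their libraries were normalized in. Markers of other cells differed as well. In this contrast the median was 1.80 for 11 neutrophil, 1.22 for 10 B cell and -0.22 for 8 macrophage markers. It was -0.94 for 12 erythroid and -0.34 for 21 thymocyte and T-ALL markers, against 0.02 for all genes tested. The part of these cells in the difference was not tested.

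This difference too depended on the scaling. Scaled to the thymocyte and T-ALL markers, 0 of the 10 passed. The median of all genes was then 0.43, and Mpc1 was at -0.96 (limma adjusted p = 0.0761). Without KO acute replicates 1 and 2, 1 passed, Mpc1, and without KO acute replicate 2 alone 2 passed. Without WT survival replicates 1 and 2, 3 passed, because Pdk3 was lost (limma adjusted p = 0.0669), and without KO second-wave replicate 1 Pdk3 was lost as well (limma adjusted p = 0.0542). The number of all genes called, 1570, was 530 without KO acute replicates 1 and 2, 833 without WT survival replicates 1 and 2, 973 without WT survival replicate 2 and 2452 without WT survival replicate 3. In 32 alternative settings the difference passed for Mpc1 in 31, for Pdha1 in 29, for Dld in 25 and for Pdk3 in 13.

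Neighbouring genes with a difference between the acute and endpoint effects included the second phosphatase. Pdp2 was at 422 ± 63.1 in KO acute and 510.3 ± 73.8 in WT acute libraries (SD, n = 4 each), and at 753 ± 41.4 in the first wave and 774 ± 145 in the second (SD, n = 3 each) against 503 ± 45.3 in WT survival libraries (SD, n = 4). No single comparison was called for Pdp2 (limma adjusted p = 0.292 acute, 0.617 first wave and 0.202 second wave), and the difference of effects was -0.87 (SE 0.22, limma adjusted p = 0.0142). Ogdh differed by -1.61, Ldha by -1.05, Slc16a1 by -0.94, Isca2 by -1.03 and Isca1 by -0.59, and Dlst by 0.82 in the other direction (highest limma adjusted p = 0.0361, for Isca1). Pdk2, a further kinase gene, was listed in the survival table only, at 0 to 9.99 normalized counts, below the filter.

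Levels of the 10 genes can be set against each other only per length. Divided by the transcript length in kilobases, Pdhb stood highest and Pdp1 lowest in all 5 groups. In KO acute libraries Pdhb was at 557 ± 75 normalized counts per kilobase (SD, n = 4), followed by Dld at 239 ± 52.6, Pdha1 at 229 ± 32, Mpc1 at 206 ± 23, Mpc2 at 169 ± 56.6 and Pdk1 at 162 ± 38.6, neighbours that overlapped within their SDs. Pdk3 at 99 ± 24.7, Dlat at 97 ± 23.2 and Pdhx at 79.8 ± 7.21 followed, and Pdp1 was at 31.7 ± 8.9. In WT acute libraries Mpc1 was next to Pdhb (749.5 ± 91.3), at 436 ± 80.9, followed by Dld at 373 ± 17.7 and Pdha1 at 342 ± 42.6, again overlapping, and Pdp1 was at 48.3 ± 11 (SD, n = 4 each). Pdk3 was at 158 ± 20.5 and Pdk1 at 134 ± 14.8 in WT acute libraries, an order reversed in KO acute libraries.

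In the survival groups, Pdhb led with 966 ± 27.2 per kilobase in the first wave and 913 ± 102 in the second (SD, n = 3 each), against 1022 ± 93.8 in WT survival libraries (SD, n = 4). Pdha1, Mpc1 and Dld came next in every survival group, with Pdha1 at 562 in the first wave, 584 in the second and 479.7 in WT, Mpc1 at 535 in the first, 643 in the second and 470.0 in WT, and Dld at 452 in the first, 512 in the second and 439 in WT. Lengths are medians over the basic protein-coding GENCODE transcripts of each gene and not those of the isoforms that these spleens used.

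Across libraries the 10 genes did not vary as a single block. Over the 8 acute libraries, which hold both genotypes, Pearson correlations of the 45 pairs on the log2 scale ran from -0.61 to 0.92 with a median of 0.50, the highest being 0.92 for Mpc1 and Pdha1 and for Pdhb and Pdp1. Over the 10 survival libraries they ran from -0.66 for Pdha1 and Pdhx to 0.82, with a median of 0.16. Pdha1 and Pdhb, the subunits of E1, were at -0.63 there. These are descriptions over few libraries that share their group differences and scaling.

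Genes whose levels followed a member most closely were ranked by the mean of the correlations in the 8 acute and the 10 survival libraries. The 7742 genes ranked had a mean of at least 100 in both tables. Symbols of predicted genes, RIKEN and other clones, pseudogenes, immunoglobulins and T-cell receptor segments were left out. As the closest of 7742 over libraries that hold both KO and WT, the genes named describe and were not tested. Each pair of values gives the acute and then the survival correlation. For Mpc1 these were Hnrnpll (0.98 and 0.87), Fbxo3 (0.96 and 0.90) and Orc2 (0.94 and 0.92). For Pdha1 they were Ube2j1 (0.93 and 0.93), Psme3 (0.91 and 0.95) and Tm9sf3 (0.93 and 0.91). For Pdk1 they were Klf13 (0.87 and 0.69), Zfp592 (0.77 and 0.76) and Nqo2 (0.80 and 0.70), at lower likeness.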

How the data were processed

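Total RNA of filtered, red-cell-lysed spleen suspensions went into strand-specific libraries, per the labels' protocols. The authors deposited 1 table of acute and 1 of survival libraries in the unit signal, that is, gene counts after division by size factors. The submitters' processing notes name kallisto 0.44.0, DESeq and the GRCm38 build for what the authors deposited. For annotation, gene filter, strand setting and the DESeq version, nothing was found: not given in the sources used here. Each table had its own normalization, so levels are not compared between them. Of the values under 8, 33.7% to 63.4% per library were whole multiples of 1 read within 0.02, so read counts could not be restored and no count model was used. Normalized totals were 7.07 to 10.4 M, and depth bears on counting error only.

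Values were analysed as log2(value + 1), a scale on which changes of low genes appear smaller. The limma package 3.58.1 of R 4.3.3 (lmFit, eBayes with trend) tested every gene averaging 10 or more across a table, with Benjamini-Hochberg adjustment over all genes tested and a threshold of 0.05. The 8 acute libraries made 1 fit, the 10 survival libraries another, and all 18 the comparison of effects. An exact two-sided permutation test of single values was added. The test was run on simulated counts, and the outcome required of it was the right sign for the largest changes simulated. Those counts held no differences of cell make-up, so this check does not bear on how far the calls depend on it. Coordinates and lengths came from GENCODE M21, in which 18312 of 18329 and 18940 of 18953 symbols had a length. Promoters came from RefSeq.

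The members, lists and tests were chosen with earlier results of these data known. The text names all 10 genes and Acly, and the 3 genes most like Mpc1, Pdha1 and Pdk1. Of each list it names at most 4 genes past the threshold with the smallest adjusted p. The B cell, neutrophil, erythroid and macrophage markers past it are counted and not named. Pdk4, Pdp2, Pdpr and Pdk2 are named beside them as the rest of the regulator list. Alternatives covered pseudocounts, filters, scaling, variance models, removal of the dependence on length, GC content and expression level, a replicate block and libraries left out.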

Additional observations from a re-analysis of the deposited data

Results flagged for a closer look

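The values of 1 library stood away from the rest of its group in 2 of 30 checks of groups of 4 libraries. Such a check picks out about 1 in 20 groups by chance. For Dld, WT acute replicate 1 was at 882.0 normalized counts, below the other 3 WT acute libraries. Without it the acute value of Dld remained past the threshold. For Pdk1, WT survival replicate 1 was at 1956 normalized counts, above the other 3 WT survival libraries.

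For 4 of the 10 genes the acute KO and WT difference was not that of the endpoint, by a test of the difference itself. Among all 13742 genes tested 11.4% passed this test, 7.51% lower and 3.92% higher. With scaling to the thymocyte and T-ALL markers 0 of the 10 passed. The acute minus endpoint value was -1.37 for Mpc1, -0.83 for Pdha1, -0.82 for Dld and -0.91 for Pdk3 on the log2 scale (limma adjusted p = 0.00354, 0.00935, 0.0252 and 0.0348).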

How the results depend on the processing

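No value of the 10 genes that was called changed sign under any alternative. In the acute comparison 4 genes passed, all lower. Only 1 did with eBayes run without a trend, 1 with the dependence on length, GC content and expression level removed (the property trend), 1 with scaling to the thymocyte and T-ALL markers (added after the data were seen) and 2 without the 2 KO acute libraries of high mitochondrial share. With 1 library left out it was 2 to 4. With a replicate block it was 3, Pdk3 being lost (limma adjusted p = 0.0508), and with the property trend removed and the block 0, where Mpc1 was at -0.77 (limma adjusted p = 0.0501). With group means removed, same-numbered libraries correlated at r = -0.0289 to 0.0065 over 4 acute pairs and -0.0295 to 0.0946 over 9 survival pairs. Differently numbered libraries correlated at -0.048 to 0.0463 over 12 acute pairs and -0.102 to 0.105 over 24 survival pairs. Whether same-numbered libraries share more than a number is not settled by these values. For the acute minus endpoint difference, where 4 passed, it was 2 with eBayes without a trend, 2 with the property trend removed, 0 with the marker scaling, 1 without those 2 KO libraries, 2 to 4 with 1 library left out, 2 with the replicate block and 1 with that removal and the block. In the 4 survival comparisons the count was 0 throughout. The number of all genes called in the acute comparison was 1794, against 693 with eBayes without a trend, 880 with the property trend removed and the block, 903 without the 2 KO libraries and 983 to 1634 with 1 library left out (983 when WT acute replicate 4 and 1179 when WT acute replicate 2 was the one omitted). For the acute minus endpoint difference it was 1570, against 924 with the property trend removed and the block, 883 with the marker scaling, 530 without the 2 KO libraries, 833 without WT survival replicates 1 and 2, and 973 to 2452 with 1 library left out, where the shift exceeded 1.5 times without WT survival replicate 2 (973), KO acute replicate 2 (1017), WT acute replicate 4 (1029) and WT survival replicate 3 (2452). In the survival comparisons small counts of all genes moved by more than 1.5 times in either direction, among them without WT survival replicate 3, where 155 genes were called over both waves against 3 with it and 140 in the second wave against 32. With 3 and 4 libraries a group, the 95% intervals beside the uncalled values bound what could be seen. The cause of these shifts was not tested.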
